A study of Mus musculus with 12 samples.

Results

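The collagen genes of mouse embryonic fibroblasts were followed through conversion to adipocytes in wild-type cells and in cells that lack both enzymes of the last step of triacylglycerol synthesis. They were taken as all genes whose symbol in the array annotation is Col, a number, a and a number, measured by a probe set assigned to a single gene. For Col6a5 and Col6a6, which had 2 such probe sets each, the brighter on average was used. This gave 44 collagen genes among 19938 genes measured, divided into 11 fibrillar chains, 6 type IV chains of basement membranes and 27 other collagens.

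The study compared 4 groups of 3 samples. They were differentiated D1D2KO cells, undifferentiated D1D2KO cells, differentiated wild-type (WT) cells and undifferentiated WT cells. D1D2KO stands for deficiency of the acyltransferases DGAT1 and DGAT2, which attach the last fatty acid of a triacylglycerol. All cells were primary fibroblasts prepared from embryos at embryonic day 14, labelled strain C57BL6, and were grown in DMEM with fetal bovine serum. Cells to be differentiated were left for 2 days after reaching confluency. They then received 1 µM dexamethasone, 500 µM isobutylmethylxanthine, 5 µg/ml insulin and 15 µM troglitazone for 2 to 3 days, then insulin and troglitazone at the same doses for 2 days, and plain medium until they were collected. The labels give no day of collection for either state, so the hormone treatment and the time in culture cannot be told apart. They call the samples biological replicates without naming the embryo or culture of each, so the p-values measure only the spread between these samples.

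Collagens are triple helices of 3 chains, each gene giving 1 chain. Fibrillar collagens assemble into the cross-banded fibrils that carry tension in connective tissue, type IV chains form the sheet-like network of basement membranes, and the remaining types bind to fibrils, form other networks or beaded filaments, or span the cell membrane. Fibroblasts deposit a matrix rich in types I and III, whereas a fat cell is wrapped in a basement membrane of type IV collagen and laminin, with type VI collagen abundant around it.

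Samples of 1 group correlated at 0.993 to 0.997 across genes, and the mean signal of 11 of the 44 collagens lay below that of the median gene. Dgat1 signal in D1D2KO cells was 38.2% of the WT level in differentiated and 39.4% in undifferentiated cells, and that of Dgat2 was 31.4% in differentiated and 72.0% in undifferentiated cells. Both genes were lower in D1D2KO cells in both states (limma, adjusted p of at most 0.0345). All 7 adipocyte markers measured rose in both genotypes, by a median of 5.02 log2 in D1D2KO and 4.56 log2 in WT cells, and their mean signal was 11.10 to 11.42 in differentiated D1D2KO, 6.29 to 6.40 in undifferentiated D1D2KO, 10.85 to 11.06 in differentiated WT and 6.56 to 6.65 in undifferentiated WT samples. None of the 4 measured osteoblast markers or the 7 endothelial markers had a mean signal above the median gene, and 2 of 7 chondrocyte markers did. The mean of 6 macrophage markers was 8.22 to 8.30 in differentiated D1D2KO, 9.39 to 9.47 in undifferentiated D1D2KO, 8.31 to 8.57 in differentiated WT and 9.50 to 9.55 in undifferentiated WT samples. The Y-linked gene Eif2s3y had 2.64 to 3.06 log2 signal in the D1D2KO samples, against 7.46 to 8.13 in the WT samples. Uty, also on the Y chromosome, had 2.68 to 3.17 in D1D2KO and 6.72 to 7.07 in WT samples, while Xist of the inactive X chromosome had 10.57 to 10.78 in D1D2KO and 10.05 to 10.22 in WT samples. The WT samples thus had both Y-linked and Xist signal, whereas the D1D2KO samples had Xist signal with low Y-linked signal. The sex make-up of the embryos and the genotype therefore cannot be told apart in any comparison of D1D2KO with WT cells. In these bulk samples, fewer cells of a type and less RNA per cell cannot be told apart.

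After differentiation most fibrillar chains were lower in both genotypes, while the main type IV chains, Col6a3 of type VI and Col15a1 of type XV were higher. A gene was called when its limma p, adjusted by the Benjamini-Hochberg method over all 19938 genes, was under 0.05, and every change below is a log2 difference of differentiated minus undifferentiated cells. In D1D2KO cells 6 collagens rose and 18 fell, against 15.4% and 21.2% of all genes. In WT cells 6 rose and 17 fell, against 14.7% and 19.4% of all genes. The rises thus came to about the share found for all genes, and the falls to more, a difference that was not tested. These shares were not matched for signal. At a mean signal of 6 to 7, 5 of 17 collagens fell in each genotype. Over all 3556 genes of that range, 1074 fell in D1D2KO and 956 in WT cells. At a mean signal of 10 to 15, 5 of 6 collagens fell in each genotype. Over all 488 genes there, 202 fell in D1D2KO and 168 in WT cells. The falls were thus near the share of all genes at 6 to 7 and above it at 10 to 15, the latter on 6 collagens only. At a mean signal of 9 to 10, 3 of 7 collagens fell in each genotype. Of all 893 genes there, 336 fell in D1D2KO and 272 in WT cells. The 16 collagens that fell in both genotypes were 16 of the 18 that fell in D1D2KO and 16 of the 17 that fell in WT cells. The 5 that rose in both genotypes were 5 of the 6 in each: Col15a1, Col6a3, Col4a1, Col4a2 and Col5a3. Neither genotype gave a call for 19 collagens. Among the fibrillar chains 1 rose and 8 fell in D1D2KO cells (median -0.66), and 1 rose and 7 fell in WT cells (median -0.42). Of the 6 type IV chains 2 rose and 2 fell in D1D2KO cells (median -0.13), and 2 rose and 3 fell in WT cells (median -0.14). Of the 27 other collagens 3 rose and 8 fell in D1D2KO cells (median -0.06), and 3 rose and 7 fell in WT cells (median -0.00). The median over all genes was 0.01 in D1D2KO and 0.02 in WT cells.

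**Figure D1:**
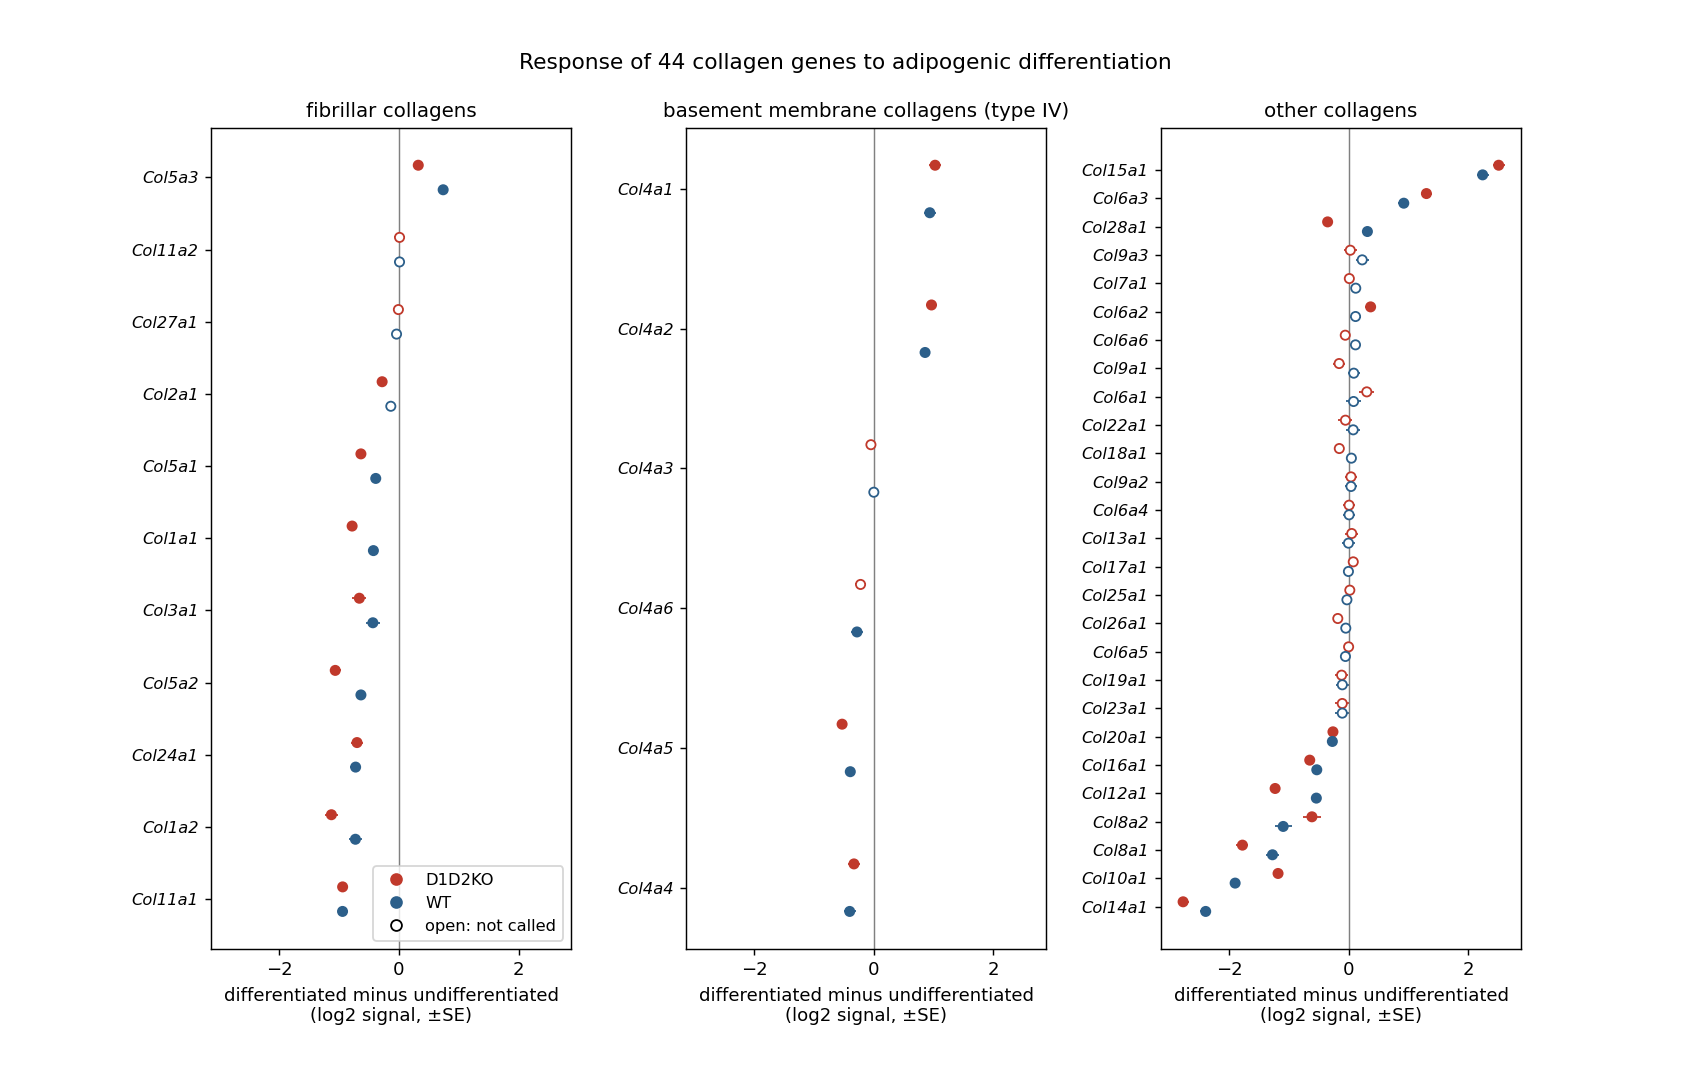
Log2 difference of differentiated minus undifferentiated cells (horizontal axis) for the 44 collagen genes, with D1D2KO in red above WT in blue, in panels for fibrillar, type IV and other collagens. Bars are standard errors from limma, open circles are genes without a call, and the points reach from -2.76 for Col14a1 to 2.50 for Col15a1, both in D1D2KO cells.

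The chains of the main fibroblast fibrils fell in both genotypes. Fibroblast markers moved with them: 7 of 8 fell in D1D2KO cells (median -0.74) and 6 of 8 in WT cells (median -0.39). In WT cells 5 of the 6 falls were without overlap of samples. Over all genes 21.2% fell in D1D2KO and 19.4% in WT cells. The mean signal of the fibroblast markers was 9.52 to 9.63 in differentiated D1D2KO, 10.31 to 10.35 in undifferentiated D1D2KO, 9.93 to 10.00 in differentiated WT and 10.29 to 10.37 in undifferentiated WT samples. Of the smooth muscle and pericyte markers 5 of 7 fell and 1 rose in D1D2KO cells, and 3 of 7 fell and 0 rose in WT cells. Other lists fell too: 5 of 6 macrophage markers in each genotype, and 3 of 4 Schwann and neural markers in D1D2KO and 4 of 4 in WT cells. Of 5 markers of dividing cells 4 fell in D1D2KO and 3 in WT cells, while 0 of 4 osteoblast markers fell in either genotype. The part of any of these lists in the falls of collagens was not tested. Col1a1 and Col1a2 encode the chains of type I collagen, the principal fibril protein of skin, tendon and bone. Col1a1 had 12.23, 12.16 and 12.21 log2 signal in differentiated D1D2KO cells, against 12.96, 12.95 and 13.03 in undifferentiated D1D2KO cells. In WT cells it had 12.50, 12.41 and 12.40 when differentiated, against 12.92, 12.82 and 12.86 when undifferentiated. The states did not overlap in either genotype, and the difference was -0.78 (SE 0.07, adjusted p = 1.59e-07) in D1D2KO and -0.42 (SE 0.07, adjusted p = 0.000199) in WT cells. Col1a2 had 11.90, 11.77 and 11.46 in differentiated D1D2KO cells, against 12.86, 12.77 and 12.88 in undifferentiated D1D2KO cells. Its WT values were 12.18, 11.79 and 12.03 in differentiated cells, against 12.79, 12.69 and 12.69 in undifferentiated cells. Here too the states were apart, with replicate 3 of the differentiated D1D2KO cells the lowest of the 12 samples. The fall was 2.18-fold in D1D2KO cells (log2 difference -1.12, SE 0.11, adjusted p = 3.27e-07) and 1.65-fold in WT cells (-0.72, SE 0.11, adjusted p = 6.53e-05).

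Type III collagen, a homotrimer that forms fibrils together with type I, behaved like type I in direction. Col3a1 had 11.85, 11.76 and 11.34 in differentiated D1D2KO cells, against 12.34, 12.29 and 12.30 in undifferentiated D1D2KO cells. In WT cells the values were 12.02, 11.71 and 11.99, against 12.38, 12.35 and 12.28. The samples did not overlap, and replicate 3 of the differentiated D1D2KO cells was again the lowest. The difference was -0.66 (SE 0.12, adjusted p = 0.000185) in D1D2KO and -0.43 (SE 0.12, adjusted p = 0.00739) in WT cells.

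Type V collagen, which starts fibrils and limits their width, was split by chain. Col5a2 had 9.47, 9.46 and 9.20 in differentiated D1D2KO cells, against 10.45, 10.44 and 10.41 in undifferentiated D1D2KO cells. Differentiated WT cells had 10.01, 9.94 and 10.05, against 10.70, 10.69 and 10.51 in undifferentiated WT cells. All 3 differentiated D1D2KO samples were below every other sample, and the fall was 2.08-fold in D1D2KO cells (-1.06, SE 0.09, adjusted p = 3.57e-08) and 1.55-fold in WT cells (-0.63, SE 0.09, adjusted p = 2.29e-05). Col5a1 fell by 0.63 in D1D2KO cells (adjusted p = 5.98e-06) and by 0.38 in WT cells (adjusted p = 0.00115). Col5a3, a chain of the type V heterotrimers of a smaller set of tissues, went the other way. It had 7.28, 7.17 and 7.15 in differentiated D1D2KO cells, against 6.90, 6.79 and 6.93 in undifferentiated D1D2KO cells, and 7.34, 7.22 and 7.32 in differentiated WT cells, against 6.60, 6.43 and 6.63 in undifferentiated WT cells. It was the only fibrillar chain that rose, by 0.33 (SE 0.08, adjusted p = 0.00433) in D1D2KO and 0.74 (SE 0.08, adjusted p = 1.76e-06) in WT cells.

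The fibrillar chains best known from cartilage and bone gave smaller sets of calls. Col11a1, a type XI chain of thin cartilage fibrils, had 7.52, 7.53 and 7.60 in differentiated D1D2KO cells, against 8.51, 8.50 and 8.45 in undifferentiated D1D2KO cells. WT cells had 7.65, 7.64 and 7.74, against 8.66, 8.65 and 8.53. The states were far apart relative to the spread, and the difference was -0.94 in each genotype (SE 0.07 in both, adjusted p = 2.06e-08 in D1D2KO and 3.18e-08 in WT cells). Col24a1, a minor fibrillar chain found in developing bone, fell by 0.70 in D1D2KO (adjusted p = 1.82e-05) and by 0.72 in WT cells (adjusted p = 1.72e-05). Col2a1, the type II chain of cartilage fibrils, fell by 0.28 in D1D2KO cells (adjusted p = 0.0154) and had a difference of -0.13 in WT cells (adjusted p = 0.258). That call was lost without undifferentiated D1D2KO replicate 1 or 2 or differentiated D1D2KO replicate 1, with adjusted p values up to 0.0559. Col11a2 (0.01 in both genotypes) and Col27a1, a cartilage chain (-0.01 in D1D2KO, -0.04 in WT), were not called.

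The paired chains of the ubiquitous basement membrane network rose together. Col4a1 had 9.73, 9.54 and 9.27 in differentiated D1D2KO cells, against 8.49, 8.50 and 8.47 in undifferentiated D1D2KO cells. In WT cells it had 9.57, 9.54 and 9.67, against 8.78, 8.66 and 8.52. All differentiated samples lay above all undifferentiated ones, and the rise was 2.03-fold in D1D2KO cells (1.02, SE 0.10, adjusted p = 4.50e-07) and 1.91-fold in WT cells (0.94, SE 0.10, adjusted p = 1.89e-06). Col4a2, whose chain pairs with that of Col4a1 in the same trimer, had 9.82, 9.70 and 9.55 in differentiated D1D2KO cells, against 8.73, 8.76 and 8.69 in undifferentiated D1D2KO cells. Its values were 9.71, 9.65 and 9.71 in differentiated WT cells, against 8.95, 8.85 and 8.71 in undifferentiated WT cells. The groups were again separate, and the rise was 1.95-fold in D1D2KO cells (0.96, SE 0.09, adjusted p = 9.11e-08) and 1.81-fold in WT cells (0.86, SE 0.09, adjusted p = 5.56e-07).

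Col4a1 and Col4a2 run in opposite directions from neighbouring starts on chromosome 8. Each start lies inside the other gene's first bases, so the annotated transcripts overlap at their 5′ ends by 22 bases, and the windows of 250 bases before to 50 bases after each start overlap by 78 bases. That overlap, on the plus strand at chr8:11312805-11312826 of GRCm38.p6, is shown because the genes that rose together begin at its ends, Col4a2 at the first base shown and Col4a1 at the last. The sequence is RefSeq's.
Col4a2 start to Col4a1 start: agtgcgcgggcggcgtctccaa

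The other type IV chains, which form the networks of kidney, lung, eye and smooth muscle basement membranes, did not rise. Col4a5 had 6.51, 6.36 and 6.39 in differentiated D1D2KO cells, against 6.98, 6.98 and 6.89 in undifferentiated D1D2KO cells, and it fell by 0.53 (SE 0.08, adjusted p = 4.61e-05). In WT cells it had 6.65, 6.58 and 6.67, against 7.11, 7.05 and 6.90, and it fell by 0.39 (SE 0.08, adjusted p = 0.00104). No differentiated sample reached an undifferentiated one. The remaining 3 chains had mean signals below the median gene. Col4a4 fell by 0.33 in D1D2KO (adjusted p = 0.0138) and by 0.40 in WT cells (adjusted p = 0.00422), and the D1D2KO call was lost without undifferentiated replicate 3 or differentiated replicate 1, with adjusted p up to 0.0630. Col4a6 fell by 0.28 in WT cells (adjusted p = 0.0341), a call lost without any 1 of 5 of the 6 WT samples, all but differentiated replicate 3, with adjusted p up to 0.104. Its difference in D1D2KO cells was -0.22 (adjusted p = 0.0903), and without differentiated D1D2KO replicate 3 it was -0.35 (adjusted p = 0.00281). Col4a3 differed by -0.05 in D1D2KO and 0.00 in WT cells. Col4a3 and Col4a4 on chromosome 1, and Col4a5 and Col4a6 on the X chromosome, are neighbouring pairs in the RefSeq gene order like Col4a1 and Col4a2.

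**Figure D2:**
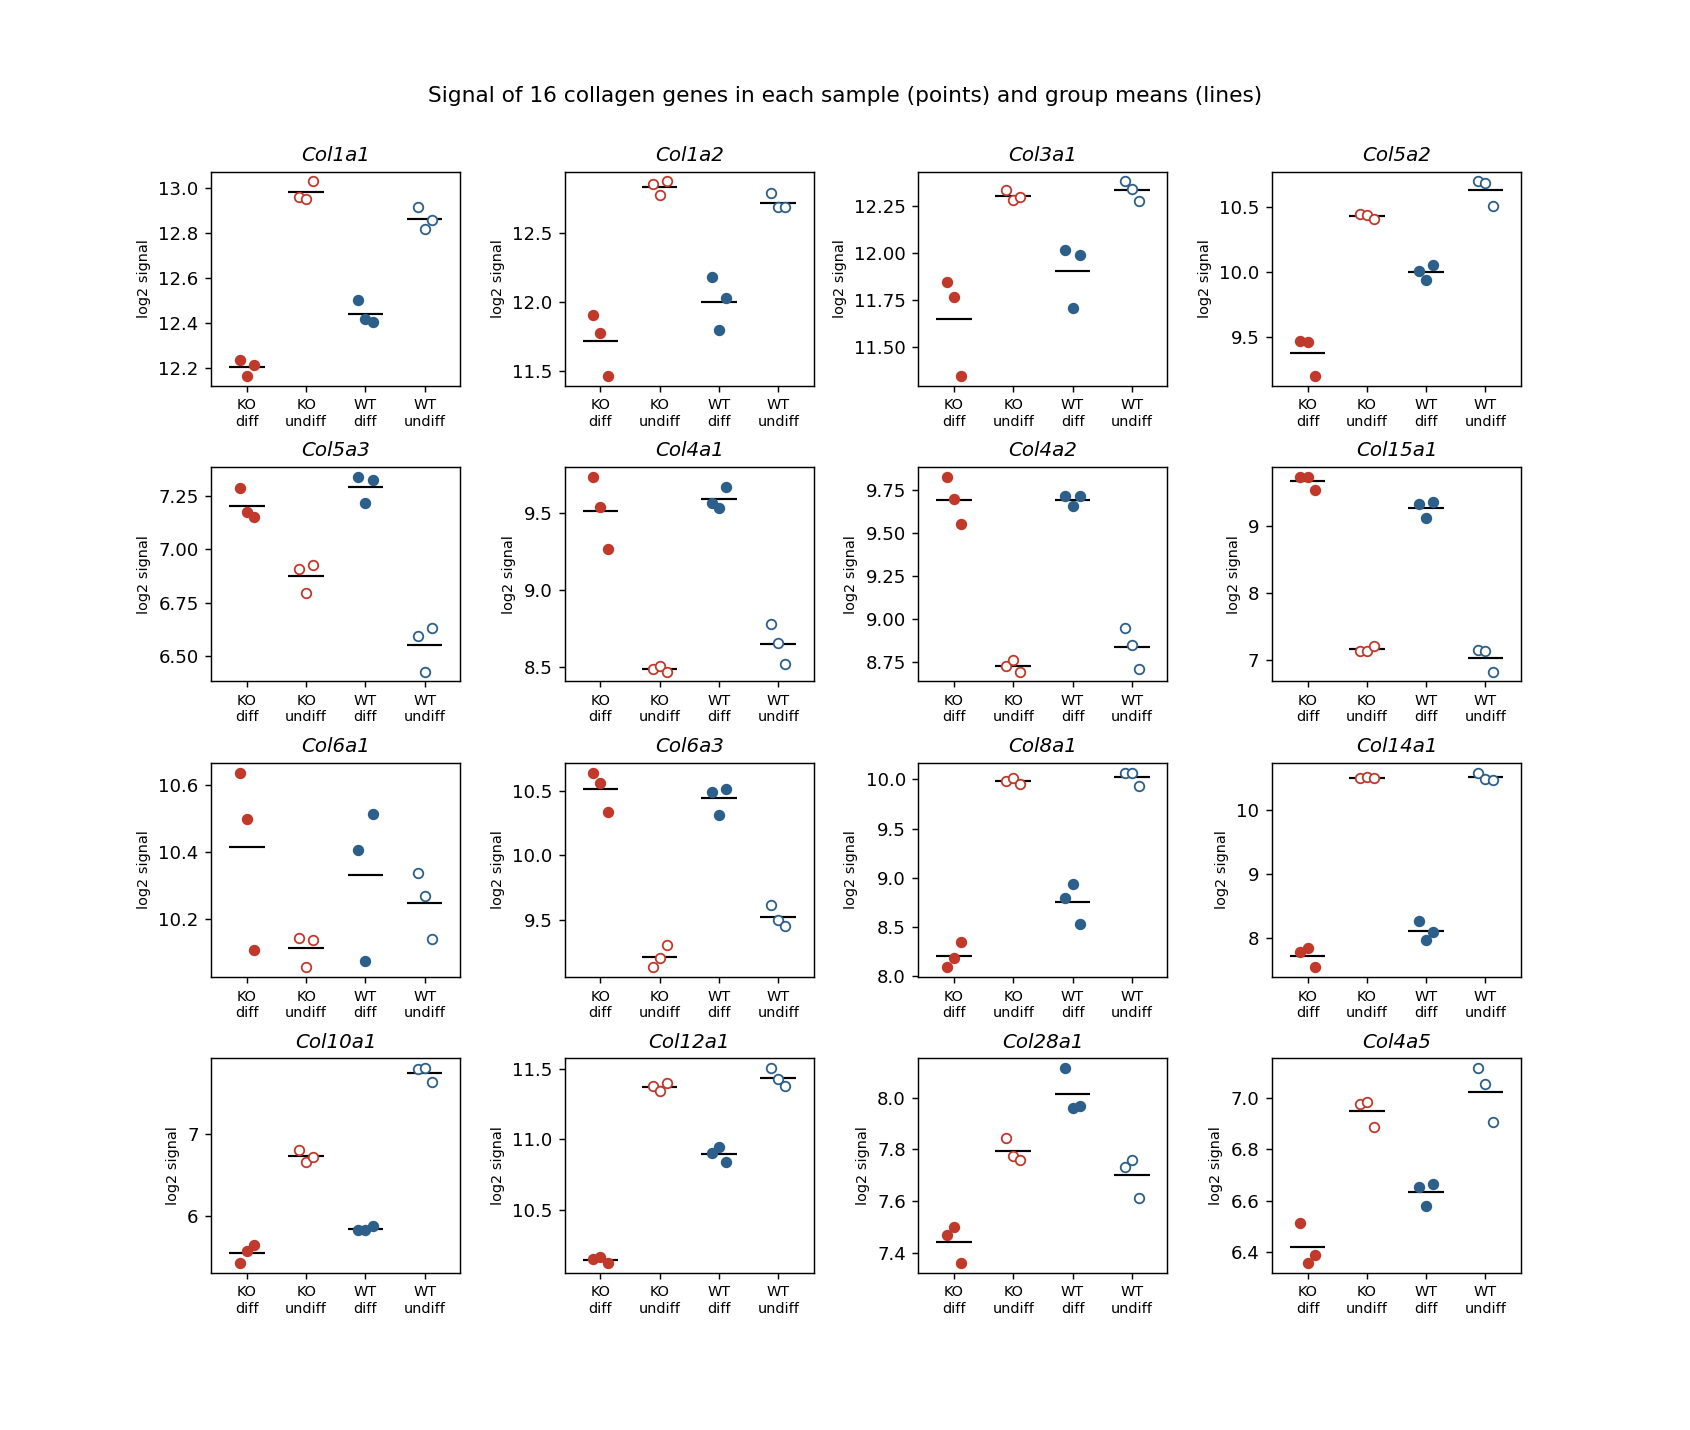
Log2 signal (vertical axis, with its own range in each panel and not starting at 0) of 16 collagen genes in the 12 samples, as points, with group means as lines. Groups run from differentiated D1D2KO and undifferentiated D1D2KO (red) to differentiated WT and undifferentiated WT (blue), and filled points are differentiated cells. Col15a1 is high in all 6 differentiated samples, from 9.12 to 9.73, and Col14a1 is low in them, from 7.55 to 8.27.

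Col15a1 had the largest rise of the 44 in both genotypes. It encodes type XV collagen, a multiplexin that anchors basement membranes to nearby fibrils and is cleaved to a fragment related to endostatin. It had 9.73, 9.73 and 9.54 in differentiated D1D2KO cells, against 7.13, 7.13 and 7.22 in undifferentiated D1D2KO cells. In WT cells it had 9.33, 9.12 and 9.36, against 7.14, 7.14 and 6.83. The gap between the states was many times the spread within them, with a rise of 5.68-fold in D1D2KO cells (2.50, SE 0.10, adjusted p = 3.25e-12) and 4.71-fold in WT cells (2.24, SE 0.10, adjusted p = 2.07e-11). Col18a1, the other multiplexin and the source of endostatin, was not called (-0.16 in D1D2KO and 0.05 in WT cells).

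Type VI collagen forms beaded filaments from the chains of Col6a1, Col6a2 and Col6a3, or of chains related to that of Col6a3. Col6a3 had 10.64, 10.56 and 10.33 in differentiated D1D2KO cells, against 9.13, 9.20 and 9.30 in undifferentiated D1D2KO cells. Its values in WT cells were 10.49, 10.31 and 10.52 when differentiated, against 9.61, 9.50 and 9.45 when undifferentiated. The states did not overlap, and Col6a3 rose by 2.46-fold in D1D2KO (1.30, SE 0.09, adjusted p = 6.59e-09) and 1.89-fold in WT cells (0.92, SE 0.09, adjusted p = 6.70e-07). Its partner Col6a2 rose by 0.37 in D1D2KO cells (SE 0.10, adjusted p = 0.00528) and differed by 0.11 in WT cells (adjusted p = 0.395). Col6a1 had 10.64, 10.50 and 10.11 in differentiated D1D2KO cells, against 10.14, 10.06 and 10.14 in undifferentiated D1D2KO cells, and the lowest differentiated sample fell inside the undifferentiated range. Its difference was 0.30 in D1D2KO (adjusted p = 0.0748) and 0.08 in WT cells (adjusted p = 0.671), and without replicate 3 of the differentiated D1D2KO cells it was 0.46 (adjusted p = 0.00565). Col6a4, Col6a5 and Col6a6, a run of neighbouring genes on chromosome 9, had differences between -0.06 and 0.11 with no call. Col6a2 and Col6a1 are neighbours on chromosome 10, while Col6a3 does not adjoin another collagen.

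Because probe sets differ in brightness, chains of 1 trimer were set against each other by the change in their log2 ratio, in 8 pairs and 4 comparisons, 32 values in all. The exact two-sided permutation test of 3 against 3 samples cannot go below p = 0.10, and the smallest value after Benjamini-Hochberg adjustment was 0.16, so the statements below are of size and overlap alone. The log2 ratio of Col6a3 to Col6a1 was higher after differentiation by 1.00 in D1D2KO and by 0.84 in WT cells, with no overlap of samples. That of Col6a2 to Col6a1 changed by 0.06 in D1D2KO and 0.03 in WT cells, with overlap. The ratio of Col4a2 to Col4a1 changed by -0.06 in D1D2KO cells, with overlap, and by -0.08 in WT cells, without. Col1a2 relative to Col1a1 changed by -0.35 in D1D2KO and by -0.30 in WT cells, and Col5a2 relative to Col5a1 by -0.43 and -0.25 in the same order, all without overlap. The shift was 0.96 in D1D2KO and 1.13 in WT cells for Col5a3 relative to Col5a1, and 0.95 in both for Col11a2 relative to Col11a1, again without overlap. Col11a2 itself, with a mean signal of 6.34, changed by 0.01 in both genotypes without a call, so that shift restates the fall of Col11a1. For Col8a2 relative to Col8a1 the change was 1.16 in D1D2KO cells, without overlap, and 0.18 in WT cells, with overlap.

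The largest falls belonged to collagens that neither form fibrils themselves nor the type IV network. Col14a1 encodes a FACIT collagen, a type that sits on the surface of fibrils, and regulates their growth in tendon and skin. It had 7.78, 7.85 and 7.55 in differentiated D1D2KO cells, against 10.49, 10.50 and 10.49 in undifferentiated D1D2KO cells. WT cells had 8.27, 7.98 and 8.10, against 10.57, 10.47 and 10.46. No sample of 1 state came near the other, and the signal was 6.79-fold lower after differentiation in D1D2KO cells (-2.76, SE 0.09, adjusted p = 3.84e-13) and 5.23-fold lower in WT cells (-2.39, SE 0.09, adjusted p = 3.75e-12). Of the other FACIT chains, Col12a1 fell as described below, Col16a1 fell by 0.65 in D1D2KO (adjusted p = 2.11e-06) and 0.53 in WT cells (adjusted p = 2.72e-05), and Col20a1, of signal below the median gene, fell by 0.26 (adjusted p = 0.00865) and 0.27 (adjusted p = 0.00768).

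The network-forming chains fell as well. Col8a1, a type VIII chain of the hexagonal lattice under endothelia, had 8.09, 8.19 and 8.35 in differentiated D1D2KO cells, against 9.98, 10.01 and 9.96 in undifferentiated D1D2KO cells. Its values were 8.79, 8.93 and 8.53 in differentiated WT cells, against 10.07, 10.07 and 9.93 in undifferentiated WT cells. The states were separate, with a fall of 3.42-fold in D1D2KO (-1.77, SE 0.10, adjusted p = 3.08e-10) and 2.41-fold in WT cells (-1.27, SE 0.10, adjusted p = 3.08e-08). Its partner Col8a2 had 6.06, 6.45 and 6.87 in differentiated D1D2KO cells, against 7.17, 7.00 and 7.04 in undifferentiated D1D2KO cells. Those 3 differentiated samples were the most scattered of its 4 groups, and the fall was 0.61 (SE 0.14, adjusted p = 0.00251) in D1D2KO, against 1.09 (SE 0.14, adjusted p = 1.25e-05) in WT cells.

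Col10a1 encodes type X collagen, the network chain that marks hypertrophic cartilage. It had 5.43, 5.57 and 5.65 in differentiated D1D2KO cells, against 6.81, 6.66 and 6.73 in undifferentiated D1D2KO cells. Its WT values were 5.83, 5.83 and 5.88 in differentiated cells, against 7.80, 7.80 and 7.63 in undifferentiated cells. The 4 groups did not overlap with one another, and the fall was 2.26-fold in D1D2KO (-1.18, SE 0.08, adjusted p = 4.95e-09) and 3.72-fold in WT cells (-1.90, SE 0.08, adjusted p = 1.89e-11). The 100 bases before its annotated start are shown as the promoter of the collagen with the largest difference in response between the genotypes. They lie on the plus strand at chr10:34389881-34389980 of GRCm38.p6 and come from RefSeq, and the capitals mark the letters TATAAA, which end 26 bases before the start.
Col10a1: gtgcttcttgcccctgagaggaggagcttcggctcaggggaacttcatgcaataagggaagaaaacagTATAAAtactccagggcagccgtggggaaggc

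Promoter windows of 250 bases before to 50 bases after the start were found for 35 of the 44 collagens, 38 windows in all. Searched on both strands, TATAAA was in 5 of the 38 windows (13.2%), those of Col3a1, Col11a2, Col10a1, Col13a1 and Col17a1, against 13.6% of 32851 windows of all genes. CCAAT was in 13 of 38 (34.2%) against 37.4%, among them those of Col4a5 and of Col4a1 and Col4a2, whose windows overlap. These are matches of letters within the windows only.

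Col12a1 and Col28a1 are described below, and the remaining 11 of the 27 other collagens gave no call in either response. They were Col19a1, Col22a1 and Col26a1, the type IX chains Col9a1, Col9a2 and Col9a3 of cartilage, the anchoring fibril chain Col7a1 and the membrane-spanning Col13a1, Col17a1, Col23a1 and Col25a1. Their differences ran from -0.18 to 0.23. In WT cells Col23a1 was called lower without differentiated replicate 1 (-0.30, adjusted p = 0.0359), and Col9a3 was called higher without differentiated replicate 2 (0.31, adjusted p = 0.0425).

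For 3 collagens the response itself differed between the genotypes. The test was the difference of the D1D2KO response minus the WT response, which passed for 1 collagen in the positive and 2 in the negative direction, against 0.747% and 0.712% of all genes. Col12a1 encodes the large FACIT collagen of dense connective tissue, which links fibrils to other matrix proteins. It had 10.15, 10.17 and 10.13 in differentiated D1D2KO cells, against 11.38, 11.34 and 11.40 in undifferentiated D1D2KO cells, and 10.90, 10.95 and 10.84 in differentiated WT cells, against 11.50, 11.43 and 11.38 in undifferentiated WT cells. The undifferentiated genotypes overlapped, whereas every differentiated D1D2KO sample was below every differentiated WT sample. The response was -1.23 (SE 0.07) in D1D2KO and -0.54 (SE 0.07) in WT cells, and the difference between the responses was -0.69 (SE 0.10, limma adjusted p = 0.00271).

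Col28a1, the gene of a collagen with von Willebrand factor A domains that was found around peripheral nerve, moved in opposite directions. It had 7.47, 7.50 and 7.36 in differentiated D1D2KO cells, against 7.84, 7.78 and 7.76 in undifferentiated D1D2KO cells. Its WT values were 8.11, 7.96 and 7.97, against 7.73, 7.76 and 7.61. The differentiated D1D2KO samples were the lowest 3 of the 12 and the differentiated WT samples the highest 3. It fell by 0.35 (SE 0.08, adjusted p = 0.00187) in D1D2KO and rose by 0.31 (SE 0.08, adjusted p = 0.00531) in WT cells, and the difference between the responses was -0.66 (SE 0.11, limma adjusted p = 0.00660). Of 4 Schwann and neural markers measured 2 had mean signals above the median gene. The mean of the 4 was 5.68 to 5.77 in differentiated D1D2KO and 5.60 to 5.73 in differentiated WT samples, which overlap. Between those groups 1 of the 4 was lower in D1D2KO cells (-0.36), against 7.42% of all genes, and 3 had positive differences (up to 0.27). After differentiation 4 of 4 fell in WT and 3 of 4 in D1D2KO cells, against 19.4% and 21.2% of all genes. Their part in the Col28a1 values was not tested.

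For Col10a1 the difference between the responses was 0.72 (SE 0.12, limma adjusted p = 0.00559), the fall being smaller in D1D2KO cells, whose undifferentiated samples were already lower than the undifferentiated WT samples. Leaving out any 1 of the 12 samples kept all 3 calls, with adjusted p values up to 0.0124 for Col12a1, 0.0251 for Col28a1 and 0.0211 for Col10a1. Among the fibrillar chains 7 of 11 differences between the responses were negative, with a median of -0.23 against -0.01 for all genes, and none was called. The nearest were Col5a3 (-0.42, SE 0.12, adjusted p = 0.0991), Col1a1 (-0.36, SE 0.10, adjusted p = 0.114) and Col5a2 (-0.43, SE 0.12, adjusted p = 0.114). Col8a1, with responses of -1.77 in D1D2KO and -1.27 in WT cells, had a difference between the responses of -0.50 (SE 0.14, adjusted p = 0.102), which was -0.61 (adjusted p = 0.0218) without replicate 3 of the differentiated WT cells. Restricting the test to genes above the median signal gave these 4 genes adjusted p values of 0.0348 to 0.0420. The type IV chains had a median of 0.07 and the other collagens one of -0.00.

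Between the genotypes, differentiated D1D2KO cells had 4 collagens higher and 7 lower than differentiated WT cells, against 6.25% and 7.42% of all genes. The 4 with calls that held when any 1 sample was left out were all lower in D1D2KO cells: Col12a1 (-0.75, SE 0.07, adjusted p = 4.80e-06), Col5a2 (-0.63, SE 0.09, adjusted p = 0.000231), Col28a1 (-0.57, SE 0.08, adjusted p = 0.000213) and Col8a1 (-0.54, SE 0.10, adjusted p = 0.00247). Col14a1 was lower by 0.39 (adjusted p = 0.0130, and 0.0505 without replicate 3 of the differentiated D1D2KO cells). Col10a1 (-0.30, adjusted p = 0.0291) and Col1a1 (-0.24, adjusted p = 0.0412) were lower and Col15a1 (0.39, adjusted p = 0.0174), Col17a1 (0.30, adjusted p = 0.0194), Col27a1 (0.28, adjusted p = 0.0333) and Col25a1 (0.27, adjusted p = 0.0472) higher, with groups that did not overlap. Each of these 6 calls was lost when certain single samples were left out: for Col1a1 and Col25a1 any of the 6, for Col27a1 any but D1D2KO replicate 1, for Col10a1 any but D1D2KO replicate 3 and WT replicate 1. For Col15a1 they were D1D2KO replicates 1 and 2 and WT replicate 2, and for Col17a1 D1D2KO replicates 1 and 3 and WT replicate 2. The adjusted p values then reached 0.109 for Col1a1, 0.102 for Col25a1 and Col10a1, 0.0888 for Col27a1, 0.0819 for Col15a1 and 0.0590 for Col17a1. Col17a1 and Col25a1 had mean signals of 5.50 and 5.52, below the median gene. At a mean signal of 5 to 6 the median difference of all genes was 0.12, with 2431 of 3352 positive. By class, 1 fibrillar chain was higher and 2 lower (median -0.12), 0 type IV chains were called (median 0.07), and 3 other collagens were higher and 5 lower (median 0.15), with a median of 0.03 over all genes. Of the uncalled fibrillar chains, Col1a2 differed by -0.29 (adjusted p = 0.0963) and Col3a1 by -0.25 (adjusted p = 0.146). Leaving out 1 sample gave a higher call to Col8a2, Col23a1, Col26a1, Col6a4 or Col13a1, each in a single run, with adjusted p of 0.0135 to 0.0470. Col4a1 (-0.08) and Col4a2 (-0.00) were not called.

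**Figure D3:**
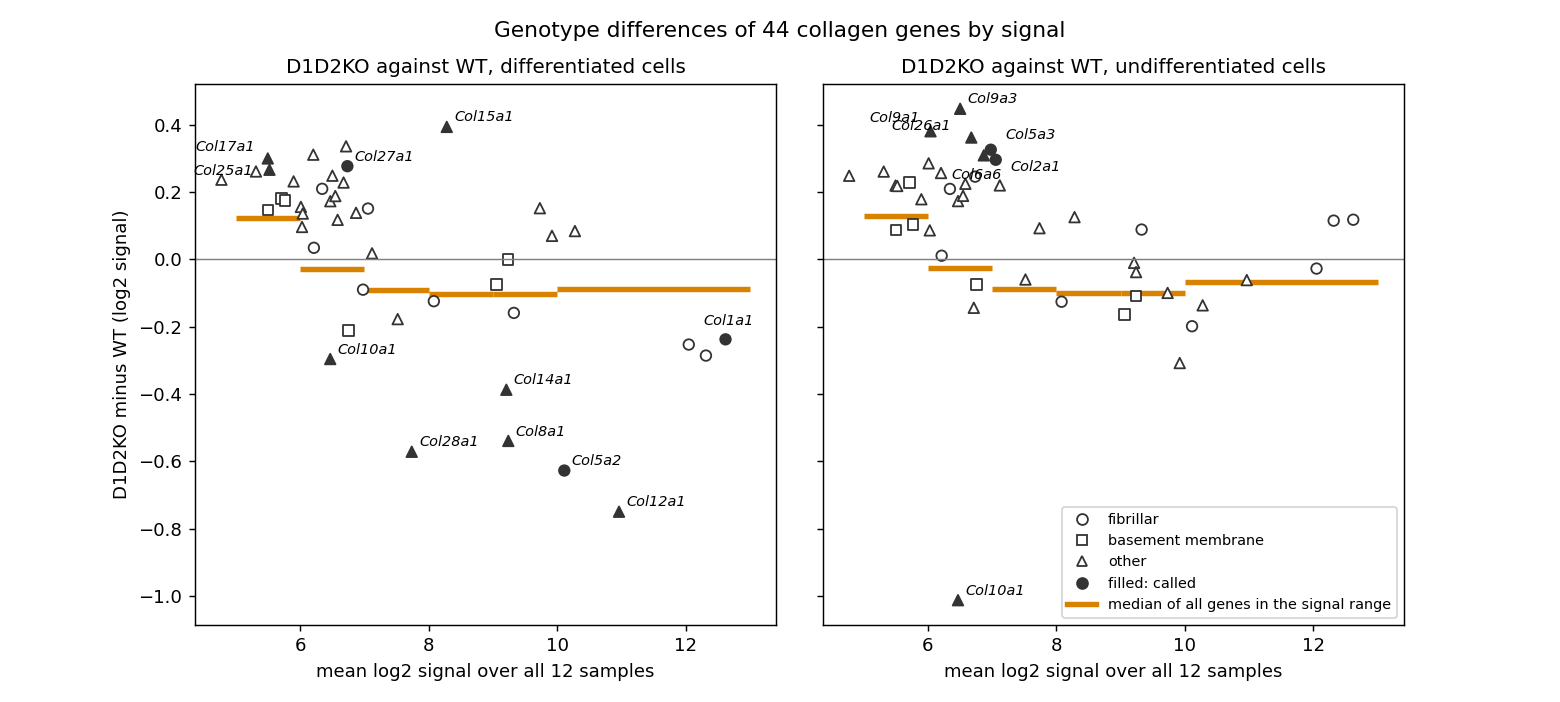
Log2 difference of D1D2KO minus WT cells (vertical axis) against the mean log2 signal over all 12 samples (horizontal axis) for the 44 collagen genes, in differentiated cells on the left and undifferentiated cells on the right. Filled symbols are called genes, shapes are the 3 classes, and orange lines are medians of all genes in each signal range. The low values at high signal in differentiated cells (Col12a1 at -0.75, Col5a2 at -0.63) stand beside -0.06 for Col12a1 and -0.20 for Col5a2 in undifferentiated cells, where Col10a1 at -1.01 is the lowest and Col6a3 at -0.31 the next, without a call.

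In undifferentiated cells 6 collagens were higher and 1 lower in D1D2KO than in WT, against 4.4% and 3.62% of all genes. The lower one, Col10a1, had 6.81, 6.66 and 6.73 in D1D2KO, against 7.80, 7.80 and 7.63 in WT cells, a 2.02-fold difference (-1.01, SE 0.08, adjusted p = 1.23e-06) that held when any 1 sample was left out. Those higher in D1D2KO cells were Col9a3 (0.45, adjusted p = 0.0225), Col9a1 (0.38, adjusted p = 0.0265), Col26a1 (0.36, adjusted p = 0.0198), Col5a3 (0.33, adjusted p = 0.0272), Col6a6 (0.31, adjusted p = 0.0195) and Col2a1 (0.30, adjusted p = 0.0437). For these 6 genes the groups did not overlap, but all 6 calls were lost without WT replicate 1 or 2 or D1D2KO replicate 1 or 3, with adjusted p values reaching 0.0827 for Col6a6 and 0.201 for Col2a1. Col6a3 was lower by 0.31 without overlap and missed the threshold (adjusted p = 0.0544), but was called in 4 alternatives, namely array centring, genes above the median signal, only the groups compared, and trended and robust eBayes (0.0296 to 0.0411). The genotype difference of genes at large varied with signal. Among genes with a mean signal of 6 to 7 the median difference of all 3556 genes was -0.03, and that of 17 collagens was 0.22, with 14 positive. For a mean signal of 5 to 6 it was 0.13 over all 3352 genes and 0.22 over 7 collagens, all positive. In differentiated cells the corresponding medians were 0.16 for the 17 collagens against -0.03, and 0.23 for the 7 against 0.12. Of the fibrillar chains 2 were higher and 0 lower (median 0.11), no type IV chain was called (median 0.01), and 4 other collagens were higher and 1 lower (median 0.18), with a median of 0.02 over all genes.

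Markers of other cell types differed between the genotypes beside these collagens. Of 7 smooth muscle and pericyte markers 6 were called lower in the D1D2KO cells of either state, and the median difference of the 7 was -1.86 in differentiated and -1.48 in undifferentiated cells. Their mean signal was 7.52 to 7.63 in differentiated D1D2KO, 8.15 to 8.39 in undifferentiated D1D2KO, 9.12 to 9.26 in differentiated WT and 9.35 to 9.46 in undifferentiated WT samples. Of 8 fibroblast markers 4 were lower and 0 higher in differentiated D1D2KO cells, and their mean was 9.52 to 9.63, against 9.93 to 10.00 in differentiated WT samples. Of 7 adipocyte markers 4 were higher and 0 lower in differentiated D1D2KO cells, and 3 of 5 markers of dividing cells were lower in both D1D2KO states. Over all genes 6.25% were higher and 7.42% lower in differentiated and 4.4% higher and 3.62% lower in undifferentiated D1D2KO cells. Their part in the collagen differences was not tested.

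Genes of the proteins that make, link, coat and bind collagens mostly fell. Collagen chains are hydroxylated, glycosylated and folded in the endoplasmic reticulum, trimmed outside the cell and cross-linked by lysyl oxidases. Of 26 measured genes of synthesis and processing, 5 rose and 16 fell in D1D2KO cells (median -0.41) and 4 rose and 15 fell in WT cells (median -0.26). Over all genes 15.4% rose and 21.2% fell in D1D2KO and 14.7% rose and 19.4% fell in WT cells, so the rises were near that share. The 15 falls in WT cells were 10 without undifferentiated replicate 1. P4ha3, a prolyl 4-hydroxylase subunit, fell by 1.59 in D1D2KO (adjusted p = 9.65e-09) and by 0.72 in WT cells (adjusted p = 0.000138), and Bmp1, the protease that removes the C-propeptide, fell by 0.99 in D1D2KO cells. Adamts3, a protease of the N-propeptide (-0.64), and Fkbp14, a prolyl isomerase (-0.72), fell in WT cells. Bmp1 was also called lower in WT cells, and Adamts3 and Fkbp14 also in D1D2KO cells. These calls held when any 1 sample was left out. Plod1, a lysyl hydroxylase, rose by 1.18 in D1D2KO (adjusted p = 7.34e-07) and by 0.64 in WT cells (adjusted p = 0.000669). P4ha2, a prolyl 4-hydroxylase subunit, rose by 0.95 in D1D2KO cells and was called higher in WT cells too. P4hb, the shared partner of the prolyl 4-hydroxylases, was not called (-0.08 in D1D2KO, -0.12 in WT).

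The fibril-binding small proteoglycans fell without exception, 9 of 9 in each genotype against 21.2% of all genes in D1D2KO and 19.4% in WT cells, with medians of -1.23 in D1D2KO and -0.75 in WT cells. The difference was -1.87 in D1D2KO and -1.37 in WT cells for Fmod (fibromodulin), -1.38 in D1D2KO and -1.67 in WT cells for Ogn (osteoglycin), and -1.40 in D1D2KO and -1.47 in WT cells for Omd (osteomodulin). Lum (lumican) had -1.33 in both genotypes, and the adjusted p of these 4 genes was at most 1.33e-06. Omd and Kera, another of the 9, had mean signals below the median gene. Of 9 measured collagen receptors 8 fell and 0 rose in each genotype, against the same shares of all genes, with medians of -0.70 in D1D2KO and -0.46 in WT cells. Itga11, the integrin chain that binds fibrillar collagen on fibroblasts, fell by 1.56 in D1D2KO (adjusted p = 3.24e-10) and by 0.97 in WT cells (adjusted p = 1.85e-07), and Itga1, which binds type IV collagen, by 1.11 (adjusted p = 1.75e-07) and 1.01 (adjusted p = 7.85e-07). Mrc2, an endocytic collagen receptor, fell by 0.95 and 0.73, and Ddr2, a receptor tyrosine kinase for fibrillar collagen, by 0.92 and 0.50. Itga10 was not called (-0.09 in D1D2KO, -0.16 in WT). Of 6 cross-linking genes 1 rose and 4 fell in D1D2KO (median -0.47), and 1 rose and 3 fell in WT cells (median -0.20). Tgm2 was the gene that rose, by 0.40 in D1D2KO and by 0.57 in WT cells (adjusted p = 0.00014 in WT). The lysyl oxidases Lox and Loxl1 fell by 0.48 and 0.93 in D1D2KO and by 0.19 and 0.40 in WT cells, the call of Lox in WT cells being lost without any 1 of the 6 samples except differentiated replicate 2 (adjusted p up to 0.100). Pxdn, the peroxidasin that cross-links type IV collagen, fell by 0.73 in D1D2KO (adjusted p = 2.96e-06) and by 0.57 in WT cells (adjusted p = 6.25e-05), in the cells in which Col4a1 and Col4a2 rose.

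**Figure D4:**
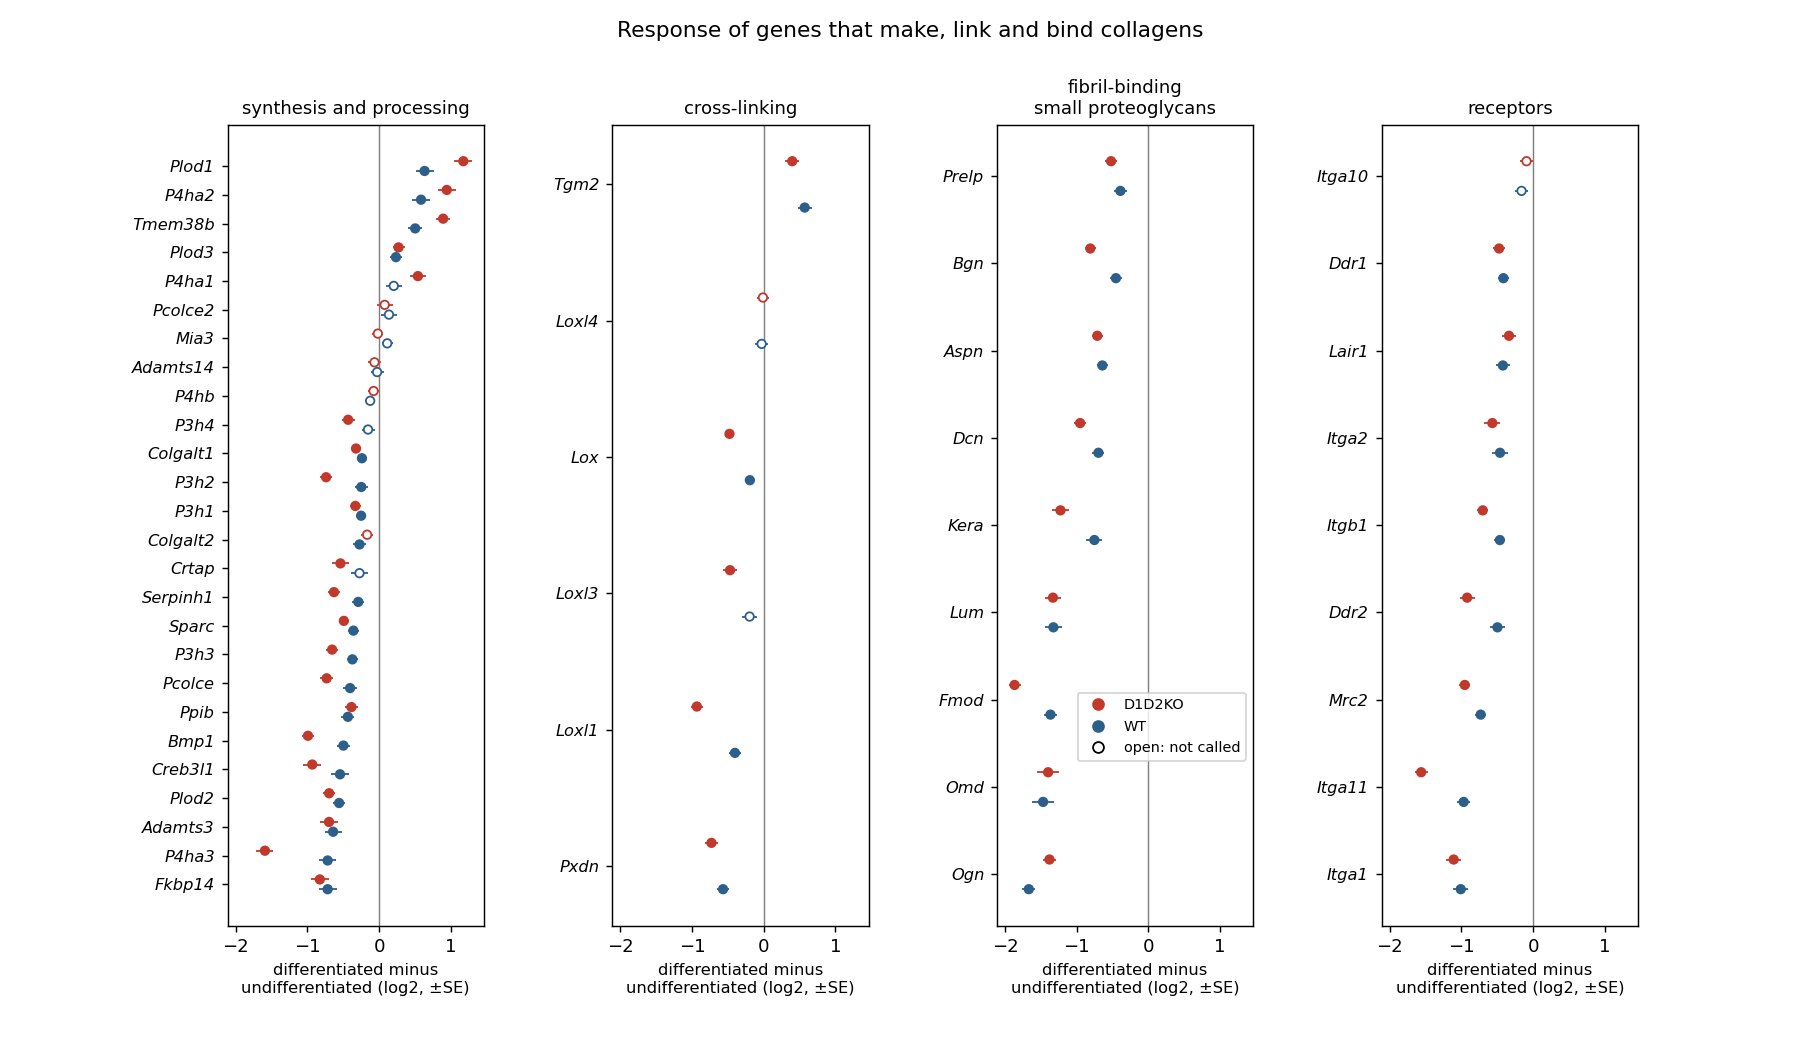
Log2 difference of differentiated minus undifferentiated cells (horizontal axis, bars are standard errors) for genes of collagen synthesis and processing, cross-linking, fibril-binding small proteoglycans and collagen receptors, with D1D2KO in red above WT in blue and open circles for genes without a call. All 9 small proteoglycans lie left of 0 in both genotypes, while Plod1 at 1.18 and 0.64 is farthest to the right.

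Between the genotypes these partner genes were mostly lower in D1D2KO cells where they differed. In differentiated cells 7 of 26 genes of synthesis and processing were lower and 0 higher, against 7.42% and 6.25% of all genes. The 7 were 4 without WT replicate 2, which left P4ha3 (-0.89, adjusted p = 0.000155), the prolyl 3-hydroxylase P3h2 (-0.53, adjusted p = 0.00111), Bmp1 (-0.51, adjusted p = 0.00152) and Serpinh1, the collagen chaperone HSP47 (-0.48, adjusted p = 0.00171). Of 6 cross-linking genes 3 were lower, Tgm2 (-0.74), Loxl1 (-0.53) and Lox (-0.29), as were 3 of 9 proteoglycans, Bgn (-0.39), Fmod (-0.33) and Dcn (-0.27), whereas Ogn was higher (0.31). Of 9 receptors 6 were lower, led by Itga1 (-0.76) and Itga2 (-0.44), and 3 were lower without WT replicate 1 or without D1D2KO replicate 3. The call of Fmod was lost without WT replicate 2, those of Dcn and Ogn without replicate 1 or 2 of either genotype, and that of Itga2 without replicate 1 or 3 of either genotype, with adjusted p up to 0.0702, 0.151, 0.104 and 0.0742 for Fmod, Dcn, Ogn and Itga2. In undifferentiated cells, where 3.62% of all genes were lower and 4.4% higher, 3 of the 26 genes of synthesis and processing were lower, P4ha2 (-0.71), Plod1 (-0.53) and P4ha1 (-0.41), with Tgm2 (-0.57) and Itga1 (-0.66). Kera (keratocan) was higher (0.76, adjusted p = 0.000733), at a mean signal of 4.80, below the median gene. P4ha1 lost its call without any 1 of the 6 samples (adjusted p up to 0.181), and Plod1 without WT replicate 1 or 2 or D1D2KO replicate 3 (up to 0.101). The difference between the responses was called for P4ha3 (-0.88, adjusted p = 0.0140), Itga11 (-0.59, adjusted p = 0.0253), Loxl1 (-0.53, adjusted p = 0.0438) and Fmod (-0.50, adjusted p = 0.0454), each with the larger fall in D1D2KO cells. The call of P4ha3 held without any 1 of the 12 samples but not without moderated variances (adjusted p = 0.119), whereas those of Itga11, Loxl1 and Fmod were lost in 6, 10 and 11 of the 12 runs that left out a sample, with adjusted p up to 0.0815, 0.117 and 0.117.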

How the data were processed

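Total RNA of 12 samples was labelled with biotin and hybridised to mouse arrays with 1 channel. The deposited table of the authors holds 35556 probe sets with values of 1.15 to 14.17, taken as log2 signals from their range. How signals were summarised and normalized is not given in the sources used here, and detection calls were not used, so a low signal cannot be told from background. Array medians ran from 5.61 to 5.69. Probe sets with 1 gene in the platform annotation (21789) were kept, those with several (1621) or none (12146) left out, and 21698 gene identifiers matched RefSeq on GRCm38.p6, used for names, gene order and promoter sequence. Groups came from the sample titles. One linear model with 4 group means was fitted to 19938 genes with limma 3.58.1 in R 4.3.3 (lmFit, eBayes), without a filter on low signal, and tested two-sided. The script was tested on simulated data.

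The collagens, their classes and all gene lists were chosen with earlier results of these data known. Named were all fibrillar and type IV chains, up to 10 called other collagens per comparison with non-overlapping samples, the uncalled with the highest signal, and up to 4 called and 2 uncalled genes per partner list. The lists of synthesis, cross-linking and receptor genes had 28, 7 and 10 members, of which Fkbp10, Adamts2, Loxl2 and Gp6 were not measured by a single-gene probe set. Samples of equal replicate number deviated together by the rule applied (all 3 correlations above 0.1) between the D1D2KO states alone, from 0.101 to 0.176, against -0.147 to 0.0522 for unequal numbers. Alternatives were quantile normalization, array centring, a filter at the median gene, averaged probe sets, a fit of only the groups compared, eBayes with trend and robust settings, a wider basement membrane class, a block for the replicate number, and each sample left out in turn.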

Additional observations from a re-analysis of the deposited data

Results flagged for a closer look

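The response to differentiation differed between D1D2KO and WT cells, by the test of the difference itself, for 3 of the 44 collagens. The D1D2KO response minus the WT response was 0.72 for Col10a1, -0.69 for Col12a1 and -0.66 for Col28a1 on the log2 scale, with 3 samples in each of the 4 groups. The differentiated Col10a1 samples of both genotypes had signals below the median gene. Of 7 smooth muscle and pericyte markers 6 had negative differences between the responses, 4 of them called. All 8 fibroblast markers had negative differences (median -0.33, 1 called), and all 7 adipocyte markers had positive ones (median 0.46, 2 called). Over all genes 0.712% were called in the negative and 0.747% in the positive direction. The part of these markers in the collagen results was not tested.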

How the results depend on the processing

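No collagen or partner gene called in either setting changed its direction under the alternatives run, which were not applied to the marker lists, while class medians near 0 changed sign as given here. Outside the runs that left out a sample 61 counts of called collagens stayed within 1.5 times and 9 did not. With the replicate number as a block, the D1D2KO response kept 6 rises and 18 falls with no collagen call changed. The other counts were 6 and 16 for the WT response (Col4a6 lost, adjusted p = 0.0501), 5 and 1 for undifferentiated (Col2a1 lost, 0.0596) and 4 and 6 for differentiated genotypes (Col1a1 lost, 0.0693), and 1 and 2 for the difference in response. The samples share only a number in these others. Leaving out 1 sample gave 6 to 7 rises and 16 to 19 falls in D1D2KO, 6 to 7 and 16 to 17 in WT, 0 to 4 higher and 5 to 6 lower in differentiated D1D2KO against WT, 0 to 8 and 1 in undifferentiated cells, and 1 and 2 to 3 for the difference in response. Class medians then ran from -0.70 to -0.58 (fibrillar), -0.21 to -0.080 (type IV) and -0.13 to -0.051 (other) in the D1D2KO response, from -0.029 to 0.042 (other) in the WT response, from 0.084 to 0.22 (other) between differentiated and from 0.16 to 0.22 (other) and -0.029 to 0.024 (type IV) between undifferentiated genotypes, and from -0.29 to -0.17, -0.016 to 0.10 and -0.099 to 0.026 (fibrillar, type IV and other) for the difference in response.

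Genes above the median signal gave medians of the type IV class of 0.96 in the D1D2KO and 0.86 in the WT response, -0.076 for differentiated and -0.11 for undifferentiated genotypes, which then rest on fewer chains. They gave medians of the other collagens of -0.11 in the D1D2KO response, 0.092 between undifferentiated genotypes and -0.11 for the difference in response, with 6 lower calls for that difference and 2 between undifferentiated genotypes. With Col7a1, Col15a1, Col17a1 and Col18a1 added to type IV, the class medians were -0.018, 0.024, 0.13 and 0.11 in the same order, and the other collagens had -0.11 in the D1D2KO response. Array centring gave 2 higher calls and a type IV median of 0.035 between differentiated genotypes, and 2 lower calls and a median of 0.14 for the other collagens between undifferentiated ones. Quantile normalization gave fibrillar medians of -0.033 and 0.17 between differentiated and undifferentiated genotypes. With only the groups compared, differentiated genotypes had 1 higher and 4 lower calls and undifferentiated ones 2 lower. Trended and robust eBayes gave 5 lower calls for the difference in response and 2 between undifferentiated genotypes. Of the named partner genes, differentiated genotypes lost Dcn and Fmod under quantile normalization, Ogn under array centring, and Dcn, Fmod, Ogn, Itga2 and Lox with only the groups compared. Of the others counted as lower there, Ddr1, Ddr2, P3h3, P3h4 and Plod2 were lost in both quantile normalization and only the groups compared. Itgb1 was lost with only the groups compared, and Dcn and Ddr1 with the replicate block. Gained were Tmem38b (higher) under quantile normalization, and Loxl3 (lower) under array centring, the filter at the median gene, trended and robust eBayes and the replicate block. Beyond the construction of each alternative the cause was not tested.

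Only 3 samples a group limit small differences, and in the genotype comparisons calls under 0.5 log2 mostly depended on single samples. Sex of the embryos and genotype cannot be told apart.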

Other observations

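Both genes with a second probe set are type VI chains. For Col6a6 the difference of D1D2KO minus WT undifferentiated cells was 0.31 by the probe set used and 0.39 by the other, and for Col6a5 it was 0.18 and 0.07.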
